A study of Homo sapiens with 2 samples.

Results

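The genes described here are 10 genes of arginine and polyamine metabolism, taken from the gene count table by symbol: ARG1, ARG2, NOS2, ODC1, AMD1, SRM, SMS, SAT1, OAZ1 and AZIN1. All 10 were present among the 46865 loci of the table. RNA had been sequenced from primitive macrophages, the embryonic macrophage type used as a model of microglia, grown from the wild-type human induced pluripotent stem cell line 1231A3 (HPS0381) over 30 days. The Control group was 1 library of macrophages with no agonist in its own title or treatment field. The PNU282987 group was 1 library of macrophages given PNU282987, a full agonist of α7 nicotinic receptors for acetylcholine, at 100 µM for 12 hours. A vehicle is not stated, both groups share the line and the differentiation, and the treatment field of the second library names amyloid β in place of the agonist, so that library is called PNU282987 here by its title and library name. With 1 library from 1 line per group, the differences below lack a replicate check and carry no p-value.

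Arginine entering a macrophage can follow competing routes. Nitric oxide synthases turn it into nitric oxide and citrulline, and arginases split it into urea and ornithine. Ornithine is the substrate of ornithine decarboxylase, which makes putrescine, and putrescine is then extended to spermidine and spermine with aminopropyl groups from decarboxylated S-adenosylmethionine. Antizyme, antizyme inhibitor and the polyamine acetyltransferase hold the polyamine pool within limits. In mouse macrophages, high Nos2 is a sign of classical activation and high Arg1 of alternative activation.

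Depth was 39316475 reads in Control and 36134391 in PNU282987. Levels are given as CPM, the reads of a gene per 1000000 reads of totals scaled with TMM factors of 0.991 and 1.01. Where a value is called corrected, a smooth trend of the log2 ratio over GC content and transcript length, fitted across the loci, was subtracted. Each interval is an exact 95% counting interval (Poisson for a level, Clopper-Pearson for a ratio), which leaves out the spread between cultures. A corrected interval is the counting interval moved by the trend, and it leaves out the error of the fitted trend. A floor of 3 reads corresponds to 0.0770 CPM for Control and 0.0823 CPM for PNU282987. A gene was called higher or lower if its level differed by at least 2-fold, its interval excluded equality and its mean reached 1 CPM. The 13 macrophage markers examined were all measured in both libraries, with summed levels of 8079 and 7375 CPM. Of these 13, 9 had a ratio below 1, with 0 called lower, and 4 a ratio above 1, with 2 called higher. Over all 14269 loci compared, 7253 had a ratio below 1 and 7016 a ratio above 1. CSF1R, the receptor that macrophages need for survival, had 1291 and 1059 CPM. The 2 markers called higher were CD14, the co-receptor for lipopolysaccharide, at 96.3 and 539 CPM, and ITGAM, an integrin chain, at 138 and 473 CPM.

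ARG1 was the member that differed most, and it was the only one called. Of the 9 members with a mean of at least 1 CPM, 1 was called higher in PNU282987 and 0 lower. Over the 14269 loci compared, 2.96% were called higher and 2.81% lower. The other 8 members lay within 1.5-fold, as did 82.4% of all loci compared. The median log2 ratio of PNU282987 to Control was 0.08 over the 9 members and -0.01 over all loci compared. Together the 10 members took 0.189% of the reads in Control and 0.191% in PNU282987.

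**Figure D1:**
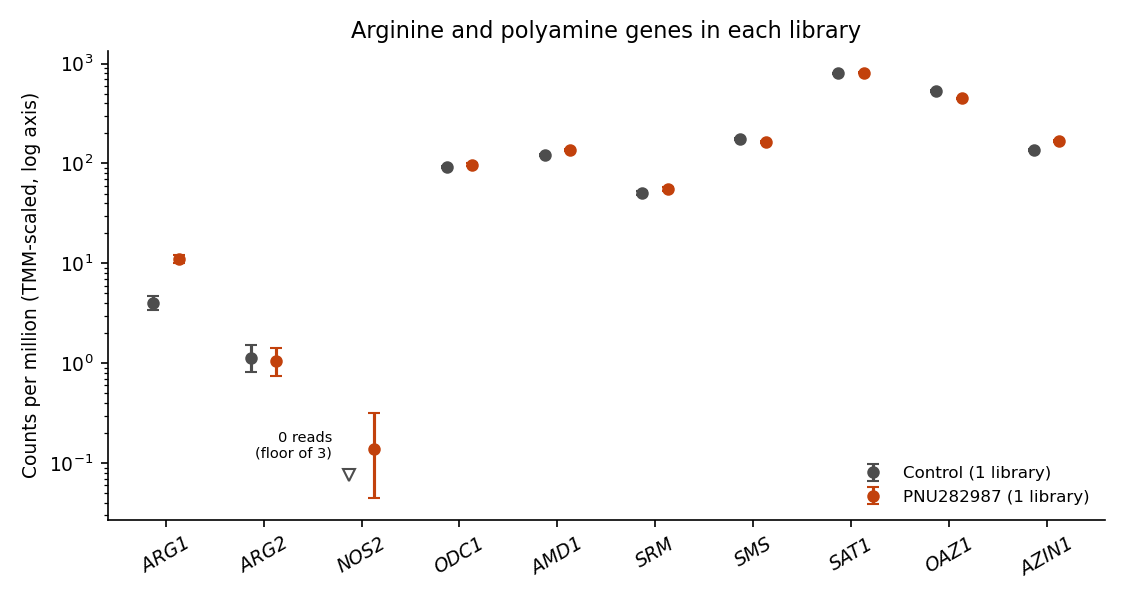
Level of each of the 10 genes in each library, in CPM on a log axis. Points are single libraries, bars are exact 95% Poisson counting intervals, and the open triangle marks the floor of 3 reads where NOS2 had 0 reads in Control. ARG1 went from 4.05 CPM in Control to 11.1 CPM in PNU282987, while for each of the 7 genes from ODC1 to AZIN1 the points of both libraries lay within 1.5-fold of each other.

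The sequence upstream of every annotated GENCODE exon is shown for both arginases, because these sister genes differed in their readout and their promoters differ in base composition. Capitals mark matches to any of 4 motifs searched on both strands: CACGTG (the E-box bound by MYC and MAX), TGACGTCA (the cyclic AMP response element, CRE), TTGCNNAA (a C/EBP site) and TATAAA (the TATA box). The stretch of ARG1 lies at chr6:131572976-131573143 on the + strand and that of ARG2 at chr14:67619670-67619797 on the + strand (RefSeq, GRCh38.p14).
ARG1: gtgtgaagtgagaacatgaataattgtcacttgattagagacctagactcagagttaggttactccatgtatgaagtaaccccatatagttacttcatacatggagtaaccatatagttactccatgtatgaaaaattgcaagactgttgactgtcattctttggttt
ARG2: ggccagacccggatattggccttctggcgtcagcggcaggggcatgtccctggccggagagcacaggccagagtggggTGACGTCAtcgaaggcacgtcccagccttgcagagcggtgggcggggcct
The ARG1 stretch had a GC content of 35.7% and 0 matches, and the ARG2 stretch a GC content of 68.8% and 1 match, TGACGTCA at position -172 from the RefSeq start. Nearer the RefSeq starts, in sequence not printed, ARG1 held TATAAA at position -29 and ARG2 a further TGACGTCA at position -64. These lie in exons of 2 and 1 GENCODE transcripts, so they are not upstream of every annotated start. The longest ARG1 first exon begins at position -82. Of 35116 RefSeq promoter windows of 300 bases, 11.5% held TATAAA and 1.85% held TGACGTCA. A match describes the letters only.

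ARG1 (chromosome 6, 131573226 to 131584329, GRCh38, + strand) encodes the cytosolic arginase of the urea cycle. The Control library gave 158 reads and the PNU282987 library 405, or 4.05 CPM (3.45 to 4.74) and 11.1 CPM (10.1 to 12.2). The intervals do not overlap, and the PNU282987 library was the higher one. The ratio was 2.74-fold (2.27 to 3.31), a log2 ratio of 1.45 (1.19 to 1.73). By log2 ratio ARG1 ranked 214th from the highest among the 14269 loci compared. Loci with a mean of 1 to 10 CPM, the range that holds ARG1, were called higher in 5.35% of cases.

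ARG1 overlaps another annotated gene, MED23, which encodes a subunit of the Mediator complex of transcription and lies on the opposite strand at 131573966 to 131628313. The reads of MED23 numbered 1393 and 1526, which is 35.7 and 41.9 CPM, a log2 ratio of 0.23 (0.12 to 0.33). With the reads of MED23 added, ARG1 had 1551 and 1931 reads and a log2 ratio of 0.41 (0.32 to 0.51), so the call was lost. Because MED23 holds more reads, the summed ratio is pulled to that of MED23 whichever gene the reads came from. In the GENCODE 29 annotation the exons of both genes shared 0 bases. Of 9 MED23 transcripts, 1 ended in an exon of 330 bases inside ARG1, and that exon begins 740 bases after the ARG1 start, in the first intron. The nearest other MED23 exon lay 2404 bases beyond the last base of ARG1. ARG1 gained 7.05 CPM between the libraries and MED23 6.11 CPM. Whether strand was used in counting is not given in the sources used here, so the division of reads between both genes is uncertain.

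**Figure D2:**
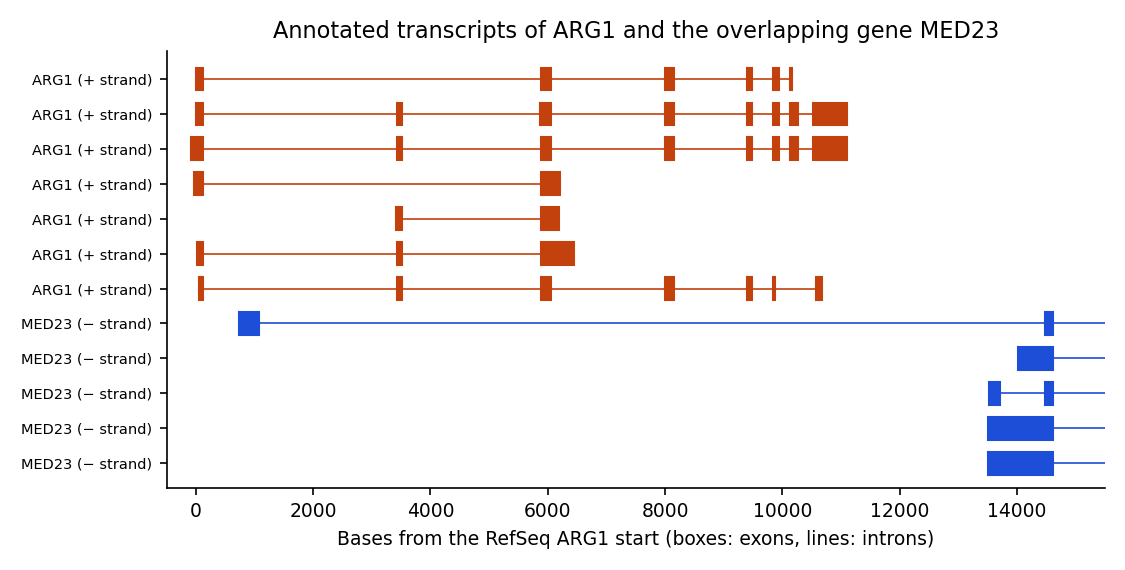
Annotated GENCODE transcripts of ARG1 (orange, + strand) and of MED23 (blue, − strand) near ARG1, in bases from the RefSeq ARG1 start; boxes are exons and lines introns. The long MED23 transcript ends in 1 exon of 330 bases in the first intron of ARG1, so it overlaps ARG1 from that intron onward. No exon of MED23 touches an exon of ARG1.

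Human ARG1 is also made by granulocytes, hepatocytes and erythroid cells, and markers of these were measured in the same libraries. In bulk RNA, a change in the number of cells of a type and a change in RNA per cell cannot be told apart. Over all 14269 loci compared, 7253 had a ratio below 1 and 7016 a ratio above 1. Of 12 granulocyte and monocyte progenitor markers, 10 had a ratio below 1, and the summed level of the 12 was 853 CPM for Control and 601 CPM for PNU282987. Of the 12, 4 were called lower and 2 higher, and none was at 0. MPO, the myeloperoxidase of azurophil granules, had 574 and 408 CPM. Those called higher were CAMP, the cathelicidin gene, at 16.9 and 46.4 CPM and MMP8, the neutrophil collagenase, at 1.92 and 3.95 CPM. LTF, at 40.1 and 19.97 CPM, and S100A12, at 22.8 and 10.7 CPM, were called lower. So were CD177, at 9.39 and 4.31 CPM, and FCGR3B, at 34.8 and 16.2 CPM. Of 8 markers of eosinophils, basophils and mast cells 7 were compared, 6 of them with a ratio below 1, and the summed level was 112 and 78.2 CPM. Of 8 hepatocyte markers 7 were compared, and these 7 had a ratio above 1, with 0 called higher. For 4 of these 7 the interval included equality. The summed level of all 8 was 61.3 and 72.7 CPM, with 0 and 19 reads for ALB, the defining albumin gene. ALB was not compared, since its mean was under 1 CPM. The near end of its counting interval was 4.99-fold, above equality. Of 8 erythroid markers 6 had 0 reads in each library, HBB among them, and the summed level was 0.231 and 0.219 CPM. The part of these cells in the ARG1 result was not tested. The 6 mesenchymal markers summed to 2678 and 3024 CPM, and the 6 pluripotency markers to 0.231 and 0.713 CPM.

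ARG2 and NOS2, the other enzymes here that use arginine itself, were barely measured. ARG2 (chromosome 14, 67619920 to 67651708), the mitochondrial arginase, gave 44 and 38 reads, or 1.13 CPM (0.820 to 1.52) and 1.04 CPM (0.738 to 1.43). The intervals overlap, and the log2 ratio of -0.12 (-0.78 to 0.54) included equality. A difference within that interval was not detectable at this depth. ARG2 shared 904 exonic bases with VTI1B, a gene of vesicle fusion on the opposite strand with 3755 and 3543 reads, so its few reads may be divided between both. It also lies within the RefSeq span of GPHN, the gephyrin gene, with 617 and 626 reads. NOS2 (chromosome 17, 27756766 to 27800529), the inducible nitric oxide synthase, was at 0 reads in Control, and its 5 reads in PNU282987 amount to 0.137 CPM (0.0445 to 0.320). Against the floor of 3 reads that is 1.78-fold, a value set by the floor and not a lower bound. The near end of the counting interval was 0.980-fold, so the interval includes equality. NOS2 did not enter the comparison, since its mean was under 1 CPM.

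Within each library, reads of ARG1 outnumbered those of ARG2 by 3.59 to 1 in Control and 10.7 to 1 in PNU282987. The ratio of these ratios was 2.96 (exact conditional counting interval 1.80 to 4.89). This measure needs no scaling of the library totals. It does depend on how reads were divided between ARG1 and MED23 and between ARG2 and VTI1B. With the reads of overlapping loci added, the log2 ratio was 0.41 for ARG1 and 0.03 for ARG2. The pair ratio was not computed under that setting.

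ODC1 and SRM are known targets of MYC. MYC, singled out once its values were known, was higher in PNU282987 at 59.9 CPM against 26.4 CPM. The stretches with E-boxes are shown for both genes, whose log2 ratios were 0.08 for ODC1 and 0.11 for SRM. Corrected for GC content and length, these were 0.17 and 0.46. Whether MYC acted on either gene was not tested. Capitals mark CACGTG and, in SRM, any of the other 3 motifs. The SRM stretch is chr1:11060025-11060268 and the ODC1 stretch chr2:10447984-10448071, both on the − strand (RefSeq, GRCh38.p14).
SRM: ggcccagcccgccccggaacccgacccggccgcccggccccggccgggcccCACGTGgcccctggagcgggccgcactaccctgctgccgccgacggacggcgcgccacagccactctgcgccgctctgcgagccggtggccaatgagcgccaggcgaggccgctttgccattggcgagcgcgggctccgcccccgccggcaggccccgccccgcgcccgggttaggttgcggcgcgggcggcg
ODC1: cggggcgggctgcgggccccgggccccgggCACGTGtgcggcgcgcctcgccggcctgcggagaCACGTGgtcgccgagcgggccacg
SRM held CACGTG at position -199. ODC1 held it at positions -29 and 5 from the second of its RefSeq starts, and both matches fall in an intron of 2 GENCODE transcripts and in an exon of 0. Of the 35116 windows 7.26% held CACGTG. Windows were found for 8 of the 10 members. TTGCNNAA was in 10.5% of all windows and in 0 of the 11 windows of the members.

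Both decarboxylases that feed the pathway differed by under 1.5-fold. ODC1 (chromosome 2, 10439968 to 10448327), the rate-limiting ornithine decarboxylase, gave 3588 and 3559 reads, or 92.1 CPM (89.1 to 95.1) and 97.6 CPM (94.4 to 101). The intervals overlap slightly, and the ratio was 1.06-fold (1.01 to 1.11). When corrected it was 1.13-fold, a log2 ratio of 0.17 (0.11 to 0.24). AMD1 (chromosome 6, 110814617 to 110895713), the S-adenosylmethionine decarboxylase, had 4712 and 4954 reads, or 121 CPM (117 to 124) and 136 CPM (132 to 140). Its log2 ratio of 0.17 (0.11 to 0.23) turned to -0.04 (-0.10 to 0.02) when corrected for GC content and length, so its direction depended on that correction. AMD1 overlaps the pseudogene CNN2P9 and, on the opposite strand, CDK19, with 1840 and 1876 reads and 0 shared exonic bases. With the reads of these loci added, the log2 ratio of AMD1 was 0.16 (0.11 to 0.21).

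The aminopropyl transferases pointed in opposite directions by small amounts. SRM (chromosome 1, 11054589 to 11060018), which makes spermidine from putrescine, had 1983 and 2007 reads, or 50.9 CPM (48.7 to 53.2) and 55.1 CPM (52.7 to 57.5). Its ratio of 1.08-fold (1.02 to 1.15) became 1.37-fold when corrected, a log2 ratio of 0.46 (0.37 to 0.55). SRM had the highest GC content of the 10 transcripts, 63.7%. SMS (chromosome X, 21940709 to 21994837), which makes spermine from spermidine, had 6819 and 5954 reads, or 175 CPM (171 to 179) and 163 CPM (159 to 168). Here Control was the higher library, with a log2 ratio of -0.10 (-0.15 to -0.05). The ratio of SRM to SMS reads was 0.291 in Control and 0.337 in PNU282987, and the ratio of these was 1.16 (1.08 to 1.25).

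SAT1, OAZ1 and AZIN1 encode the brakes of the pathway and the release of one of them. SAT1 (chromosome X, 23783173 to 23786210), the acetyltransferase that marks spermidine and spermine for export or breakdown, was the most abundant member. Its reads numbered 31014 and 29624, or 796 CPM (787 to 805) and 813 CPM (803 to 822), with a log2 ratio of 0.03 (0.01 to 0.05). Its locus includes 1 assembled transcript next to the annotated ones, and the table does not separate them. SAT1 took 41.7% of the members' reads in Control and 42.9% in PNU282987.

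OAZ1 (chromosome 19, 2269486 to 2273488), the antizyme that binds ornithine decarboxylase and sends it to the proteasome, had 20707 and 16412 reads. Its level was 531 CPM (524 to 539) against 450 CPM (443 to 457), so the intervals do not overlap and Control was higher. The log2 ratio was -0.24 (-0.27 to -0.21), and -0.02 (-0.05 to 0.01) when corrected, which includes equality. AZIN1 (chromosome 8, 102826302 to 102864200), the antizyme inhibitor, an inactive relative of ornithine decarboxylase that frees the enzyme from antizyme, had 5305 and 6136 reads. Its level was 136 CPM (132 to 140) against 168 CPM (164 to 173), with PNU282987 the higher library. The log2 ratio of 0.31 (0.25 to 0.36) was 0.14 (0.09 to 0.19) when corrected. Antizyme needs a ribosomal frameshift for its translation, and read counts do not measure that step.

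**Figure D3:**
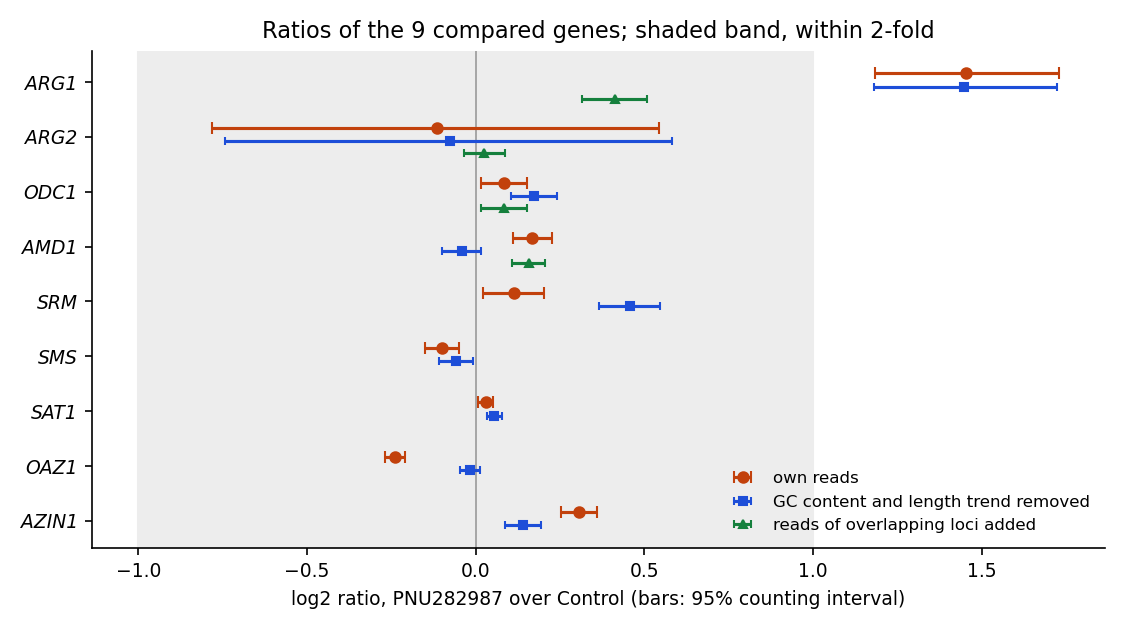
Log2 ratio of PNU282987 to Control for the 9 genes compared, with 95% counting intervals; the shaded band marks differences within 2-fold. By its own reads ARG1 (1.45) lies outside the band, and it lies inside at 0.41 once the reads of MED23 are added. OAZ1 moves from -0.24 to -0.02 and AMD1 from 0.17 to -0.04 once corrected for GC content and length.

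Of the 9 members compared, 6 had an interval above equality, 2 below and 1 including it. Over all loci compared the shares were 33.5% above, 33.6% below and 32.9% including equality. At these depths, an interval that excludes equality is thus common among all loci, also for differences of a few percent. The reads of ODC1 per read of OAZ1 went from 0.173 in Control to 0.217 in PNU282987, and the ratio of these was 1.25 (1.19 to 1.32). Per read of AZIN1, ODC1 went from 0.676 to 0.580, and the ratio of these was 0.858 (0.808 to 0.910). Corrected for GC content and length, the log2 of the first became 0.19 and that of the second changed sign, from -0.22 to 0.034. ODC1 per read of SAT1 was 0.116 and 0.120, with a ratio of 1.04 (0.988 to 1.09) that included equality. AMD1 per read of SAT1 was 0.152 and 0.167, with a ratio of 1.10 (1.05 to 1.15), and its log2 of 0.14 became -0.10 when corrected.

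**Figure D4:**
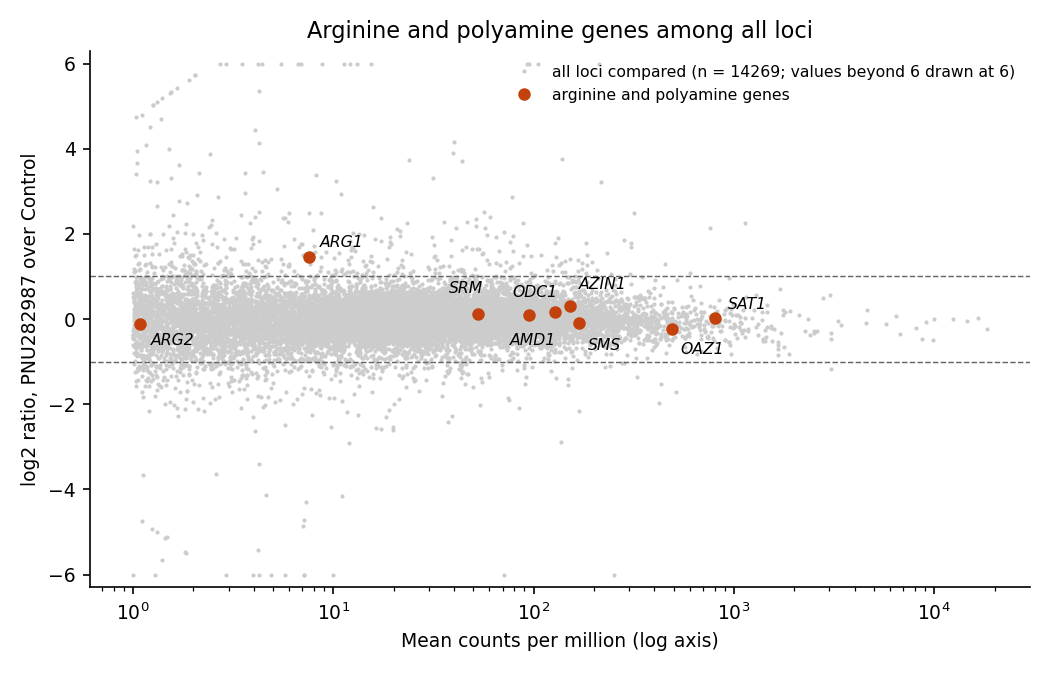
Log2 ratio of PNU282987 to Control against the mean level in CPM (log axis) for the 14269 loci compared (grey) and for the 9 compared genes of arginine and polyamine metabolism (orange); dashed lines mark 2-fold. ARG1 lies above the upper line at a mean of 7.58 CPM, and the other 8 lie inside the body of the loci.

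Between genes, levels were compared per kilobase of transcript, as RPKM, the CPM divided by the length in kilobases of a GENCODE 29 transcript. SAT1 stood at 701 RPKM in Control and 716 in PNU282987, followed by OAZ1 at 463 and 392 and SMS at 95.3 and 88.9. These genes were above the rest in both libraries. SRM came next at 40.2 and 43.5 RPKM, then AMD1 at 35.2 and 39.5, ODC1 at 34.7 and 36.8 and AZIN1 at 28.8 and 35.7. AMD1 and ODC1 did not differ beyond their counting intervals in Control, nor ODC1 and AZIN1 in PNU282987. ARG1 stood at 2.65 and 7.25 RPKM and ARG2 at 0.552 and 0.510 RPKM. Per length, OAZ1 and SAT1 transcripts thus outnumbered ODC1 transcripts in both libraries. The order among SRM, AMD1, ODC1 and AZIN1 depends on the length used: per kilobase of all annotated exons ODC1 led at 31.0 and 32.9 RPKM, and AMD1 was lowest of these at 17.2 and 19.3.

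Of 55 further genes of the pathway in 7 lists, 46 were compared, 2 were called higher and 0 lower, beside backgrounds of 2.96% and 2.81%. These were SLC7A2, in the list of arginine uptake and exchange, and GCH1, in the list of other arginine users and the nitric oxide cofactor. SLC7A2 encodes CAT2, a cationic amino acid transporter that brings arginine into cells. Its reads numbered 476 and 2162, or 12.2 CPM (11.1 to 13.4) and 59.3 CPM (56.8 to 61.9). The log2 ratio was 2.28 (2.14 to 2.43), and its corrected interval was 1.86 to 2.15. SLC7A2 overlaps no other locus with reads. SLC7A1, which encodes CAT1, the transporter of most cells, had 1362 and 2261 reads, so that its log2 ratio of 0.83 (0.73 to 0.93) misses the threshold (singled out once its values were known). SLC7A7 and SLC3A2, the light and heavy chains of an exchanger that exports arginine, had log2 ratios of 0.13 (0.09 to 0.18) and -0.06 (-0.10 to -0.02), and the latter was 0.16 when corrected. The median of the 7 compared genes of arginine uptake and exchange was 0.35.

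GCH1 encodes the first enzyme in the synthesis of tetrahydrobiopterin, the cofactor of nitric oxide synthases. Its reads numbered 290 and 584, and the log2 ratio was 1.11 (0.90 to 1.31). The intervals of its level, 6.61 to 8.35 CPM in Control and 14.7 to 17.4 CPM in PNU282987, do not overlap. When corrected, the log2 ratio was 1.04, still past 2-fold. GCHFR, the feedback regulator that inhibits this enzyme, lay just inside the threshold on the other side, with 451 and 212 reads and a log2 ratio of -0.99 (-1.24 to -0.75). The corrected value was -0.62, and with the reads of DNAJC17, which it overlaps, added it was -0.58. GCHFR was singled out once its values were known. NOS1 had 0 reads in both libraries and NOS3 14 reads in each. GATM, which uses arginine to make a creatine precursor, showed a log2 ratio of -0.45 (-0.50 to -0.41), and PADI2, which converts arginine in proteins to citrulline, had -0.26 (-0.36 to -0.16). The 9 compared genes of this list had a median of -0.12.

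**Figure D5:**
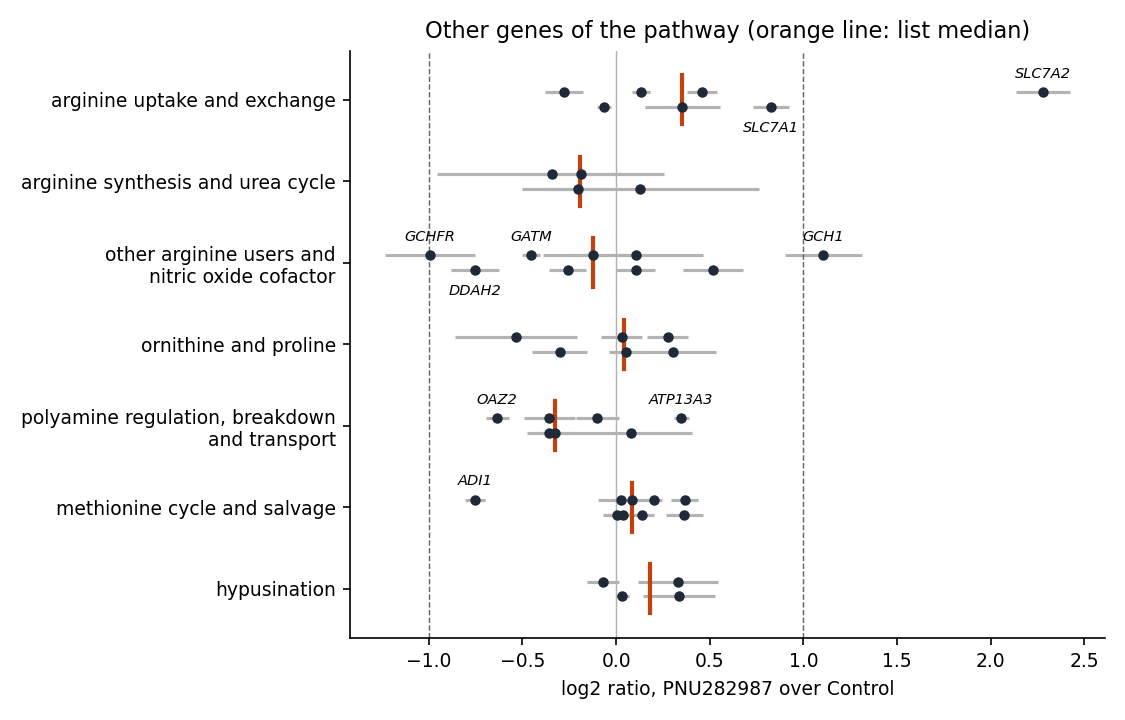
Log2 ratios of PNU282987 to Control for the 46 compared genes of 7 pathway lists, with 95% counting intervals as grey bars, the median of each list as an orange line and 2-fold as dashed lines. SLC7A2 (2.28) and GCH1 (1.11) lie beyond 2-fold, GCHFR lies at -0.99, and the labelled genes were picked with their values known.

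The remaining lists held 0 called genes. In arginine synthesis and the urea cycle, the 4 compared genes had a median of -0.19, or -0.0011 when corrected. ASL, the argininosuccinate lyase, had 801 and 652 reads with a log2 ratio of -0.20 (-0.35 to -0.05), and ASS1, the synthetase before it, -0.19 (-0.51 to 0.13). Both signs turned when corrected, to 0.044 (-0.11 to 0.20) for ASL and 0.054 (-0.27 to 0.38) for ASS1, which include equality. OTC, which uses ornithine in the liver urea cycle, had 0 reads in both libraries. In ornithine and proline metabolism the median of 6 genes was 0.04, with OAT, the ornithine aminotransferase, at 50.7 and 52.6 CPM and a ratio that included equality. ALDH18A1, which makes proline and ornithine precursors, had a log2 ratio of 0.28 (0.17 to 0.38).

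Regulators, oxidases and transporters of polyamines had a median of -0.33 over 7 genes, which became -0.10 when corrected. OAZ2, the second antizyme, had 5749 and 3463 reads with a log2 ratio of -0.64 (-0.70 to -0.57), or -0.49 when corrected. ATP13A3, a polyamine importer, had 253 and 322 CPM, and its log2 ratio of 0.35 (0.31 to 0.39) turned to -0.06 when corrected. The 9 genes of the methionine cycle and salvage had a median of 0.09. MAT2A, which makes S-adenosylmethionine, had 9869 and 10628 reads with a log2 ratio of 0.20 (0.16 to 0.24). ADI1, an enzyme of methionine salvage, had 7635 and 4241 reads with a log2 ratio of -0.75 (-0.81 to -0.70), or -0.85 when corrected. Of the 4 genes of hypusination, the modification that uses spermidine, the median was 0.18. EIF5A, the translation factor that is modified, had 330 and 338 CPM, a log2 ratio of 0.03 that was 0.30 (0.26 to 0.34) when corrected. DHPS, which transfers the spermidine group, had a log2 ratio of -0.07 (-0.15 to 0.02). Its sign turned when corrected, to 0.21 (0.12 to 0.29). DHPS overlaps WDR83, and with those reads added its log2 ratio was -0.12 (-0.20 to -0.04).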

How the data were processed

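RNA-seq of 2 libraries, 1 per group, was analysed. The authors deposited whole read counts per locus with no normalization, per the file headers. The GRCh38 build and edgeR, StringTie 2.1.3b, HISAT2 2.1.0, Trimmomatic 0.38 and FastQC 0.11.7 are listed, per the submitters' processing notes; how mates, strand and multi-mapping reads were counted is not given in the sources used here. Totals were scaled with TMM (edgeR 4.0.16, R 4.3.3). No test across samples was possible, and intervals and floors cover counting error only. If mates were counted singly the intervals are too narrow.

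The 10 genes and the lists were chosen with earlier results of these data known. Named are the 10 genes and, in each pathway list, the called genes and, where fewer than 2 were called, also the 2 with the most reads. NOS1, NOS3, OTC, SLC7A1, GCHFR, MYC, CEBPB and the single markers were singled out with their values known. Positions and promoters come from RefSeq GRCh38.p14, and exons, transcript lengths and GC content (known for 92.3% of the loci compared) from GENCODE 29. The trend was a lowess fit over GC content, then length, with a span of 0.3. DESeq2 1.42.0 size factors were an alternative scaling. Python 3.11.15, SciPy 1.17.1 and statsmodels 0.14.6 were used.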

Additional observations from a re-analysis of the deposited data

How the results depend on the processing

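Under library totals, upper quartile and DESeq2 size factors, 1 member was called higher and 0 lower, and the log2 ratio of ARG1 was 1.45 to 1.48 over these scalings, halved counts and the correction for GC content and length. No member was called with a mean of at least 10 CPM, which leaves ARG1 out, or with the reads of overlapping loci added (0 in both cases). Over all loci, higher and lower calls were 950 and 879 with no CPM filter and at least 10 reads, 181 and 141 at 10 CPM, 1252 and 1235 at 1.5-fold, and 260 and 193 with the whole interval beyond 2-fold. These settings compare other numbers of loci or move the threshold. Corrected for GC content and length, the median of polyamine regulation, breakdown and transport was -0.10, and the log2 ratio of within-library ratios was 0.19 for ODC1 to OAZ1, 0.034 (reversed) for ODC1 to AZIN1, -0.10 (reversed) for AMD1 to SAT1 and 0.52 for SRM to SMS. The cause was not tested. With the union of exons as length, 6 of 10 members kept their place in the order of levels in each library. The pair ratios under 2 alternatives and the exon union were added after seeing the data. No paired analysis was possible because there is 1 library per group, and for the same reason no library could be left out.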
